A study of Mus musculus with 6 samples.

Results

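The genes described here are 10 genes of the machinery by which salivary acinar cells secrete fluid. They were chosen by name and read as rows of the unfiltered raw count table: Chrm1, Chrm3, Itpr2, Itpr3, Stim1, Slc12a2, Ano1, Kcnma1, Kcnn4 and Aqp5. All 10 were present among the 43280 rows of that table, all 10 had counts in each of the 6 libraries, and all 10 passed the filter on low counts. The libraries were made from submandibular glands (SMGs) of adult female mice on a C57BL/6 background, 3 from wild type (WT) and 3 from double knockout (DKO) animals that lack the function of Hs3st3a1 and Hs3st3b1 in all tissues. Hs3st3a1 was disrupted by a short frameshift deletion and Hs3st3b1 by a LacZ cassette. The libraries carry the numbers 1, 4 and 5 in both groups, and the labels give no age or treatment. The products of Hs3st3a1 and Hs3st3b1 are enzymes that attach sulfate groups to heparan sulfate chains. By the study's methods each library came from whole SMG, so acinar, ductal, myoepithelial (MEC), vascular, nerve and immune RNA were counted together. A higher level of a gene per gland from more cells of a type and from more RNA per cell cannot be told apart in such libraries.

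Saliva is made in acini in response to acetylcholine from parasympathetic nerves. Muscarinic receptors on the acinar cell act through Gq and phospholipase C to make inositol trisphosphate (IP3), which opens IP3 receptors in the endoplasmic reticulum and releases calcium, and store-operated entry sustains the signal. Calcium opens a chloride channel in the apical membrane and potassium channels that keep the cell electrically negative, while a sodium-potassium-chloride cotransporter in the basolateral membrane, driven by the sodium pump, reloads the cell with chloride. Sodium and then water follow chloride into the lumen, the water through an apical aquaporin. The question asked of the counts was which of these steps differed at the RNA level between the SMGs labelled WT and DKO.

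Total counts ranged from 23674258 to 29611975 per library, and the 10 genes together held between 0.297% and 0.317% of the counts in WT and between 0.246% and 0.284% in DKO. Between 57.9% and 61.9% of the counts in WT and between 62.6% and 66.2% in DKO fell on the 10 most abundant rows. Values below are counts divided by the median-of-ratios size factor of each library (normalized counts), unless another scale is named. Hs3st3b1 had 171, 199 and 234 normalized counts in WT 1, 4 and 5 against 242, 125 and 218 in DKO 1, 4 and 5, and Hs3st3a1 had between 8.36 and 15.0 in the 6 libraries. The targeted genes therefore did not separate the groups, and every direction below rests on the labels. Every row that reached 10 counts in the 6 libraries together was tested. A gene was called where DESeq2 gave an adjusted p-value under 0.05. Adjustment was over the 16050 rows that its default filters left in. Of the 18606 rows tested, 2.9% were called, 1.02% higher in DKO and 1.88% lower, and in 20.3% the 3 values of DKO did not overlap the 3 of WT. With total counts as the scale 62 genes were higher and 1407 lower, against 189 and 350 here, and the median log2 fold change moved from 0.00 to -0.23.

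Of the 10 genes, 2 rose in DKO and 8 did not pass the test. The genes that rose were Aqp5, the apical water channel, and Kcnn4, a calcium-activated potassium channel of intermediate conductance. Their groups did not overlap and those of the other 8 did, a share of 2 in 10 (20.0%) that is near the 20.3% of all rows tested. The log2 fold change was positive in 6 genes and negative in 4, with a median of 0.06, against a median of 0.00 over all rows tested. The receptors, the IP3 receptors, the calcium sensor Stim1 and the chloride cotransporter Slc12a2 had adjusted p-values of at least 0.549 by DESeq2.

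**Figure D1:**
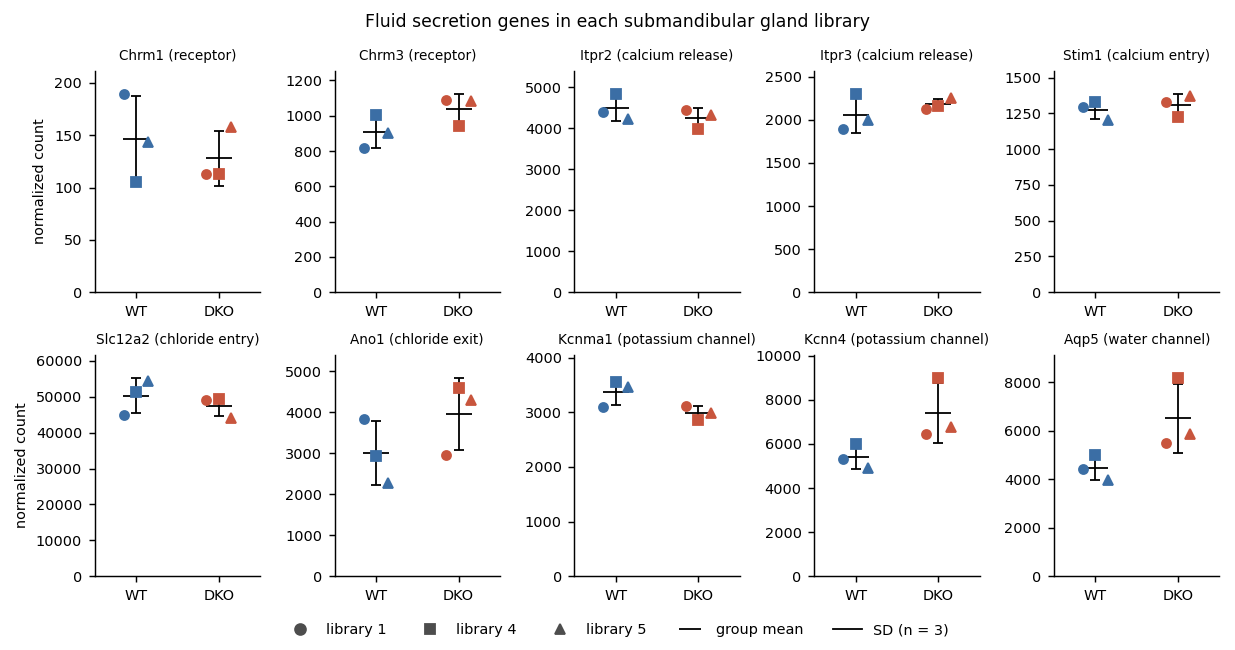
Normalized counts (vertical axes, each from 0) of the 10 genes in the 3 WT and 3 DKO libraries, with a symbol for each library number, the group mean as a horizontal tick and the SD (n = 3) as a bar. In Kcnn4 and Aqp5 all 3 DKO libraries lie above all 3 WT libraries, and in the other 8 genes the groups overlap.

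The promoters of the genes that were called are shown here. They are Aqp5 and Kcnn4 and 2 genes of the wider secretion list described further on, Lrrc26 and Slc26a6. Each sequence is the RefSeq window of 300 bases, from 250 before to 50 after the transcription start, read 5′ to 3′ on the strand of the gene in GRCm38.p6. Capitals mark GC boxes (GGGCGG, or CCGCCC where the match is on the opposite strand) and CCAAT boxes (CCAAT, or ATTGG on the opposite strand). The windows are chr15:99590778-99591077 for Aqp5, chr7:24370013-24370312 for Kcnn4, chr2:25289661-25289960 for Lrrc26 and chr9:108853793-108854092 for Slc26a6, all on the plus strand. The RefSeq start used for these windows lies 246 bases past the start of the gene in GENCODE for Aqp5 and 760 bases past it for Slc26a6, so most of the Aqp5 window and all of the Slc26a6 window lie inside the gene as GENCODE draws it.
Aqp5: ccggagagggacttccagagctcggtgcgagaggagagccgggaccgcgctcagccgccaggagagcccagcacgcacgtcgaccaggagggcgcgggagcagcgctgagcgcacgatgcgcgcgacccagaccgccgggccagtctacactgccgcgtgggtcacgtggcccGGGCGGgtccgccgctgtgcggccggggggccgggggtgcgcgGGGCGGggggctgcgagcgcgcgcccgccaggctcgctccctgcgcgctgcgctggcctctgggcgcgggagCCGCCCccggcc
Kcnn4: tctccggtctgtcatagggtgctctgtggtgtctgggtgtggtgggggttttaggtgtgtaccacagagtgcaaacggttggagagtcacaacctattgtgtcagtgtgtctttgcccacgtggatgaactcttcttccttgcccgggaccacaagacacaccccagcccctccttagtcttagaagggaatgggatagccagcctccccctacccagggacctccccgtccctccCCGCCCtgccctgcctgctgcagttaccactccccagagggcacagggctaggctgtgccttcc
Lrrc26: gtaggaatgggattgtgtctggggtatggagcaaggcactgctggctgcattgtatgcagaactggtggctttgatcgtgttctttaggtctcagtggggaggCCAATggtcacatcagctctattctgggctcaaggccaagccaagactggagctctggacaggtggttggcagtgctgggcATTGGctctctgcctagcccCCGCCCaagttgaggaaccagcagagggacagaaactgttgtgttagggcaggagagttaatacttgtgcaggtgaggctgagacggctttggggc
Slc26a6: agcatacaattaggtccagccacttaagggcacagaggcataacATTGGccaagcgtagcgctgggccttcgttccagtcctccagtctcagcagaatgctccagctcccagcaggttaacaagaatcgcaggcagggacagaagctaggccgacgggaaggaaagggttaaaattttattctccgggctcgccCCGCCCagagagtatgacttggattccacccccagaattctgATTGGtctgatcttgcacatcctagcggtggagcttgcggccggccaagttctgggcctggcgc

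The Aqp5 window held 3 GC boxes, which begin 77 and 34 bases before the RefSeq start and 39 after it, and its GC content was 79.7%. The Kcnn4 window held 1 GC box, 14 bases before the RefSeq start, and its GC content was 59.7%. Of the 10 genes, 8 had an entry in the RefSeq promoter table, Chrm1 and Slc12a2 being the exceptions. At least 1 GC box was found in 7 of the 8 windows, with 25 matches in all, 8 of them in Stim1, and Chrm3 was the window with none. The windows of Ano1 (chr7:144738524-144738823) and Kcnma1 (chr14:24004156-24004455), with 4 and 3 of these matches, lie wholly inside the genes as GENCODE draws them. Over all 32851 promoters of the table, 35.7% held a GC box. The CCAAT box was found in 1 of the 8 windows, that of Itpr2, against 37.4% of all promoters, and in both the Lrrc26 and the Slc26a6 window. The E-box CAGCTG was found in 1 window, that of Ano1, against 16.3%. The TATA box TATAAA and the core of the cAMP response element TGACGT were found in 0 of the 8, against 13.6% and 7.51% of all promoters. Both strands were searched for each motif. The GC content of the 8 windows ranged from 57.3% to 79.7%, against a median of 52.7% over the table. These matches describe letters in a window and show nothing of what binds there.

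The receptors came first in the chain. Chrm3 encodes the M3 muscarinic receptor and Chrm1 the M1 receptor, both of which couple to Gq. Chrm3 (chromosome 13, 9875486 to 10360847, minus strand, GRCm38) had 818, 1006 and 905 normalized counts in WT 1, 4 and 5 against 1088, 943 and 1084 in DKO 1, 4 and 5. DKO 4 lay inside the range of WT, so the groups overlapped. Its log2 fold change was 0.19 (DESeq2, SE 0.12, 95% interval -0.05 to 0.43, adjusted p = 0.549).

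Chrm1 (chromosome 19, 8663789 to 8683587, plus strand) had the lowest level of the 10 genes per kilobase of exon. It had 189, 106 and 143 normalized counts in WT against 113, 113 and 158 in DKO. The highest and the lowest value were both from WT, and all DKO values lay between them. DKO differed from WT by a log2 fold change of -0.19 (DESeq2, SE 0.26, 95% interval -0.70 to 0.31, adjusted p = 0.860), the widest interval of the 10.

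Calcium release is carried in acinar cells mainly by IP3 receptors of types 2 and 3. Itpr2 (chromosome 6, 146108299 to 146502223, minus strand) had 4402, 4825 and 4227 normalized counts in WT against 4446, 3975 and 4329 in DKO. Itpr3 (chromosome 17, 27057304 to 27122223, plus strand) had 1892, 2296 and 1998 in WT and 2129, 2164 and 2249 in DKO. The groups overlapped in both genes, with all Itpr3 values of DKO inside the range of WT. The log2 fold change of Itpr2 was -0.08 (DESeq2, SE 0.09, 95% interval -0.26 to 0.11, adjusted p = 0.845), and that of Itpr3 was 0.08 (DESeq2, SE 0.10, 95% interval -0.12 to 0.28, adjusted p = 0.858).

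Stim1 encodes the sensor in the endoplasmic reticulum that opens Orai channels when calcium stores are empty. Stim1 (chromosome 7, 102267806 to 102437319, plus strand) had 1295, 1331 and 1203 normalized counts in WT against 1330.2, 1225 and 1369.7 in DKO. The groups overlapped, and the log2 fold change of 0.04 was the smallest in size of the 10 (DESeq2, SE 0.10, 95% interval -0.16 to 0.24, adjusted p = 0.947).

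Chloride enters the acinar cell through Slc12a2, the cotransporter NKCC1, and leaves it through Ano1, the calcium-activated chloride channel TMEM16A. Slc12a2 (chromosome 18, 57878678 to 57946821, plus strand) had 44957, 51408 and 54455 normalized counts in WT against 49163, 49359.6 and 44178 in DKO. The groups overlapped, and the lowest value of each group differed by less than the spread within a group. Between the groups the log2 fold change was -0.08 (DESeq2, SE 0.10, 95% interval -0.28 to 0.12, adjusted p = 0.853).

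Ano1 (chromosome 7, 144588549 to 144751974, minus strand) varied more between libraries of the same group. It had 3829.7, 2925 and 2279 normalized counts in WT against 2962, 4589 and 4305 in DKO. DKO 4 and 5 lay above all WT libraries, and DKO 1 lay inside the WT range. The coefficient of variation was 25.9% in WT and 22.0% in DKO, against 9.65% and 6.17% for Slc12a2. The log2 fold change was 0.39 (SE 0.19, 95% interval 0.02 to 0.76), with an unadjusted p of 0.0373 that did not pass after adjustment (DESeq2 adjusted p = 0.312). This value was 0.60 without WT 1, 0.23 without WT 5 and 0.13 with total counts as the scale.

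Of the potassium channels, Kcnma1 encodes the pore of the large-conductance BK channel. Kcnma1 (chromosome 14, 23289431 to 24014491, minus strand) had 3089, 3555 and 3467 normalized counts in WT against 3104, 2865 and 2993 in DKO. Its log2 fold change of -0.17 did not pass the test (DESeq2, SE 0.09, 95% interval -0.36 to 0.01, adjusted p = 0.418), and the groups overlapped only through WT 1 and DKO 1. Dividing by total counts in place of size factors moved its log2 fold change to -0.40 with an adjusted p of 0.0106 by DESeq2, while the median of all rows moved to -0.23. The libraries were unstranded, and 1016 bases of Kcnma1 exon are shared with 4930519K11Rik on the opposite strand, so the strand that reads there came from is not known.

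Kcnn4 (chromosome 7, 24370263 to 24386690, plus strand) had 5307, 6009 and 4906 normalized counts in WT 1, 4 and 5 against 6459, 8971 and 6785 in DKO 1, 4 and 5. All 3 DKO libraries lay above all 3 WT libraries, and DKO 4 lay apart from the other two. The means were 5407 ± 559 (SD, n = 3) in WT and 7405 ± 1366 (SD, n = 3) in DKO, 1.37-fold higher. Its log2 fold change was 0.45 (DESeq2, SE 0.14, 95% interval 0.19 to 0.72, adjusted p = 0.0322).

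Aqp5 (chromosome 15, 99590782 to 99594829, plus strand) had 4420.5, 5010.3 and 3983 normalized counts in WT 1, 4 and 5 against 5502, 8161 and 5867 in DKO 1, 4 and 5. The groups did not overlap, DKO 4 was again the highest, and WT 5 was again the lowest. The means were 4471 ± 516 (SD, n = 3) in WT and 6510.1 ± 1441 (SD, n = 3) in DKO, 1.46-fold higher. DKO differed from WT by a log2 fold change of 0.54 (DESeq2, SE 0.15, 95% interval 0.25 to 0.84, adjusted p = 0.0165).

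The calls of Aqp5 and Kcnn4 changed with the test used and with the libraries included. Under edgeR 0 of the 10 genes passed, with adjusted p-values of 0.199 for Aqp5 and 0.212 for Kcnn4, and under limma-voom 0 passed, with 0.225 and 0.238. Few rows passed by either test, 10 of all 18606 under edgeR and 7 under limma-voom. At an unadjusted p under 0.05 there were 3 of the 10 genes by DESeq2 and 2 each by edgeR and limma-voom. Over all 18606 rows tested, 2267, 2789 and 2609 had an unadjusted p under 0.05 by DESeq2, edgeR and limma-voom. Leaving out each library in turn, neither gene was called in 4 of 6 fits. Over all rows, those 4 fits gave 151 calls without WT 1, 149 without WT 5, 170 without DKO 4 and 166 without DKO 5. The main fit gave 539, and the 2 fits that kept both genes gave 817 without WT 4 and 740 without DKO 1. Without DKO 4 the log2 fold change of Aqp5 was 0.35 (DESeq2 adjusted p = 0.111) and that of Kcnn4 was 0.29 (DESeq2 adjusted p = 0.178). Without WT 5 the adjusted p-values by DESeq2 were 0.283 and 0.367, without WT 1 they were 0.182 and 0.274, and without DKO 5 they were 0.0607 and 0.0989. The sign stayed positive for both genes in all 16 alternatives. With total counts as the scale, the log2 fold changes were 0.30 for Aqp5 and 0.21 for Kcnn4, and neither passed (DESeq2 adjusted p = 0.124 and 0.251).

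**Figure D2:**
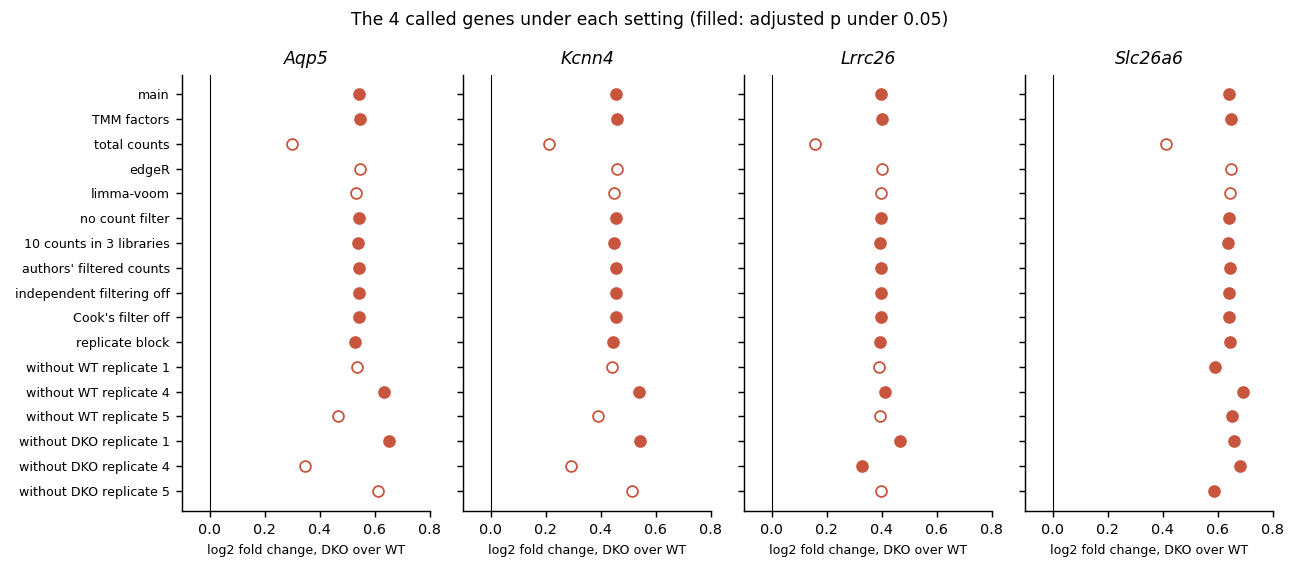
Log2 fold change of DKO over WT (horizontal axes) of Aqp5, Kcnn4, Lrrc26 and Slc26a6 under the main setting and each of the 16 alternatives (rows), with filled points where the adjusted p-value was under 0.05. Every point lies above 0, and Slc26a6 is filled in all 6 fits that left out 1 library, while Aqp5 and Kcnn4 are filled in 2 of them.

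To compare genes with each other, normalized counts were divided by the length of the merged exons in kilobases. On this scale Slc12a2 was the most abundant of the 10 in WT, with a level of 4604 ± 444 (SD, n = 3) normalized counts per kb, followed by Aqp5 with 1720.4 ± 198 and Kcnn4 with 1057 ± 109. The level of Slc12a2 was 2.68-fold that of Aqp5. Next came Ano1 with 482 ± 125, Itpr2 with 303 ± 20.8, Itpr3 with 229 ± 23.2 and Kcnma1 with 199 ± 14.6 per kb. The lowest levels were those of Chrm3 with 145 ± 15.0, Stim1 with 123 ± 6.39 and Chrm1 with 22.5 ± 6.44 per kb (SD, n = 3 each). Of the 5 genes of ion and water transport 4 took the highest ranks, and Kcnma1 stood below the IP3 receptors. Slc12a2 stood 205-fold above Chrm1, or 331-fold with the length of the longest transcript.

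In WT no 2 neighbours in this order overlapped in their libraries, although Itpr3 and Kcnma1 came within 1 count per kb of each other, at 209.8 for the lowest Itpr3 library and 209.4 for the highest Kcnma1 library. The order of the means was the same in DKO, where Kcnma1 and Chrm3 overlapped. Chrm3 was expressed at 6.46-fold the level of Chrm1 per kb in WT. With the length of the longest transcript in place of merged exons, Stim1 moved from rank 9 to rank 6 in WT, and Itpr3 from rank 6 to rank 8. On that scale Stim1 overlapped Kcnma1 and Itpr3 overlapped Chrm3 in WT. In DKO, Itpr3 overlapped both Kcnma1 and Chrm3. The order below Itpr2 thus depended on the length used. The first 5 ranks stayed in place.

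**Figure D3:**
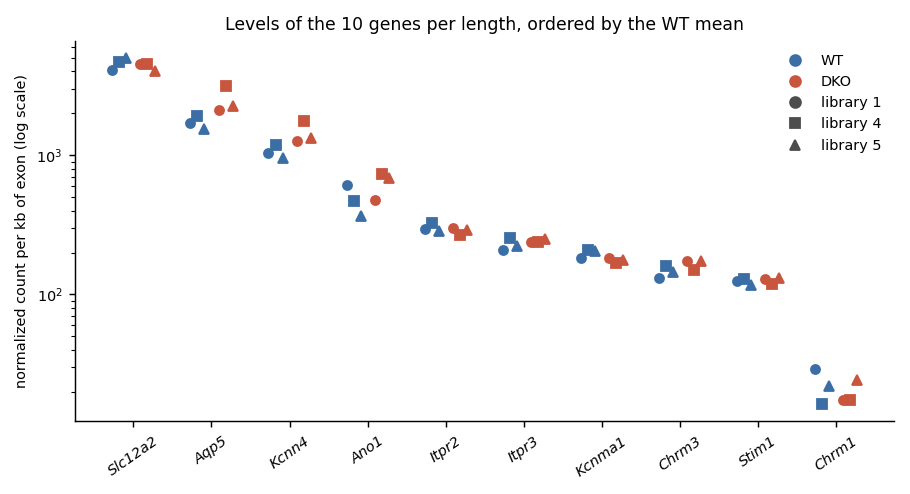
Normalized counts per kb of merged exon (vertical log axis) of the 10 genes in each library, ordered by the WT mean from left to right, with WT in blue and DKO in red and a symbol for each library number. Levels run from about 4604 per kb for Slc12a2 to 22.5 per kb for Chrm1 in WT, and the order of the means is the same in DKO.

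Ratios of a pair of genes inside a library do not depend on the scaling of that library. The pairs were the receptors, the IP3 receptors, the potassium channels, and the chloride exit over the chloride entry path. With 3 libraries against 3, the smallest two-sided p an exact permutation test can give is 0.1. The log2 ratio of Kcnma1 to Kcnn4 was -0.78, -0.76 and -0.50 in WT 1, 4 and 5 and -1.06, -1.65 and -1.18 in DKO 1, 4 and 5. The groups did not overlap, and the mean was lower in DKO by a difference of -0.62 (exact permutation p = 0.1, 0.2 after adjustment over the 4 ratios).

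The log2 ratio of Itpr2 to Itpr3 was 1.22, 1.07 and 1.08 in WT and 1.06, 0.88 and 0.94 in DKO. These groups also did not overlap, by a margin of 0.01 between WT 4 and DKO 1, with a difference of -0.16 (exact permutation p = 0.1, adjusted 0.2). The log2 ratio of Ano1 to Slc12a2 was -3.55, -4.14 and -4.58 in WT and -4.05, -3.43 and -3.36 in DKO. The groups overlapped, with a difference of 0.48 (exact permutation p = 0.2, adjusted 0.267), which was 0.74 without WT 1 and 0.23 without WT 5. The ratio of Chrm1 to Chrm3 overlapped as well, from -3.25 to -2.11 in WT and from -3.27 to -2.78 in DKO, with a difference of -0.36 (exact permutation p = 0.4, adjusted 0.4), which was -0.08 without WT 1 and -0.65 without WT 4.

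**Figure D4:**
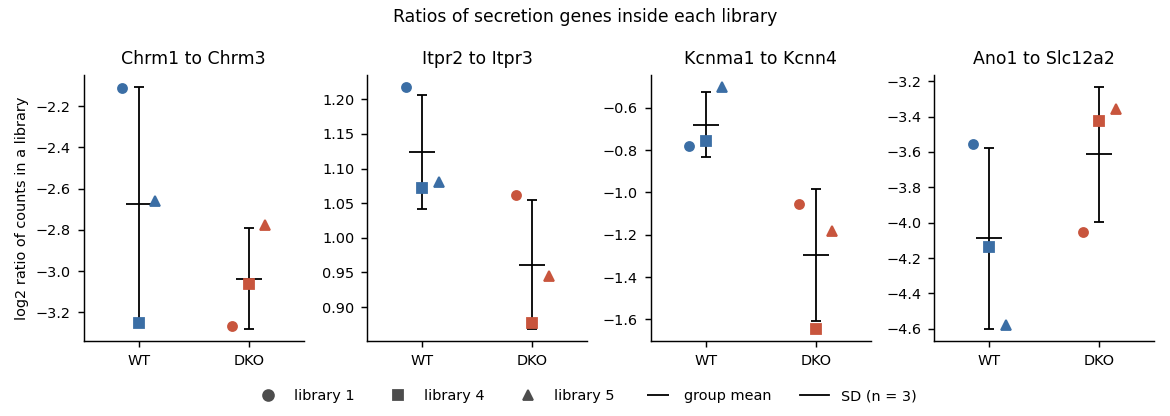
Log2 ratio of the counts of 2 genes inside each library (vertical axes, not from 0) for 4 pairs, with a symbol for each library number, the mean as a tick and the SD (n = 3) as a bar. The WT and DKO libraries do not overlap for Kcnma1 to Kcnn4 and for Itpr2 to Itpr3, and they overlap for the other two pairs.

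A wider list of 50 genes of the same pathway was read from the same fit. Of these, 45 were tested and 5 fell below the count filter. Chrm5 and Aqp8 had 0 counts in every library, and Best2, Slc4a9 and Kcnmb2 had 2, 3 and 4 counts in all 6 libraries together. Of the 45, 2 rose, 0 fell and 43 did not pass, and the groups did not overlap in 15. These are shares of 4.44% called and 33.3% without overlap, against 2.9% and 20.3% of all rows tested. The median log2 fold change was -0.01. With total counts as the scale 0 of the 45 rose and 6 fell, and under edgeR and limma-voom 0 passed, with 7 and 8 at an unadjusted p under 0.05. Of all 18606 rows, 62 rose and 1407 fell with total counts. Under edgeR and limma-voom 10 and 7 of all rows passed, with 2789 and 2609 at an unadjusted p under 0.05. For 3 of the 45, whose means were low, DESeq2 gave no adjusted p-value.

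The genes of the wider list that rose were Slc26a6 and Lrrc26. Slc26a6, an exchanger of chloride for bicarbonate and other anions, had 270.2, 312 and 296 normalized counts in WT 1, 4 and 5 against 448, 431 and 492 in DKO 1, 4 and 5. The groups did not overlap, and DKO 5 rather than DKO 4 was the highest. Between the groups the log2 fold change was 0.64 (DESeq2, SE 0.14, 95% interval 0.37 to 0.91, adjusted p = 0.000701), 1.56-fold higher. It passed in 13 of the 16 alternatives, among them all 6 that left out 1 library, and failed under edgeR (adjusted p = 0.0743), limma-voom (0.0826) and total counts (DESeq2, 0.0611).

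Lrrc26 encodes the gamma subunit that lets BK channels open at lower voltage and calcium, so it partners the product of Kcnma1. It had 1908, 1971 and 1918 normalized counts in WT against 2309, 2780.3 and 2547 in DKO. The groups did not overlap, and the WT libraries lay close together, with an SD of 33.8. The log2 fold change was 0.40 (DESeq2, SE 0.10, 95% interval 0.20 to 0.59, adjusted p = 0.00657), while that of Kcnma1 itself was -0.17 and did not pass. It passed in 10 of the 16 alternatives and failed under edgeR, limma-voom and total counts and without WT 1, WT 5 or DKO 5 (adjusted p up to 0.324, with total counts).

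The list by role gave no further calls. Of the 7 genes of Gq and phospholipase C, 0 passed, and of the 8 genes of IP3 receptor type 1 and store-operated entry, 0 passed. Itpr1, the IP3 receptor that dominates in neurons and smooth muscle, had 4969.7, 4912 and 5057 normalized counts in WT against 4324, 3805 and 4363 in DKO. The groups did not overlap, but the log2 fold change of -0.26 did not pass (DESeq2, SE 0.09, adjusted p = 0.0879). With total counts as the scale it was -0.49 and passed (DESeq2 adjusted p = 0.00315).

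Orai1, the pore of store-operated entry, had between 86.0 and 105 normalized counts in WT and between 95.7 and 133 in DKO, with overlap and a log2 fold change of 0.29 (DESeq2, SE 0.23, adjusted p = 0.695). Stim2, the paralog of Stim1, had a log2 fold change of -0.01 (DESeq2, SE 0.11, adjusted p = 0.984). Atp2a2, a calcium pump of the endoplasmic reticulum, had 0.10 (DESeq2, SE 0.08, adjusted p = 0.720), and 0 of the 6 calcium pumps passed.

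The basolateral anion exchanger and the remaining groups gave no call either. Slc4a2, which exchanges chloride for bicarbonate, had a log2 fold change of -0.07 (DESeq2, SE 0.12, adjusted p = 0.898). None of the 3 sodium pump genes, the 3 kinases that regulate Slc12a2, the 3 other anoctamins or the 4 other aquaporins tested passed.

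A further 7 genes of the wider list had an unadjusted p under 0.05 without a call, 4 with a positive and 3 with a negative log2 fold change. Itpr1 is 1 of them, and the others are named after their values were seen. Saraf, an inhibitor of store-operated entry, had 3189, 3029 and 2659 normalized counts in WT against 3295, 4188 and 3794 in DKO, with a log2 fold change of 0.35 (DESeq2, SE 0.12, adjusted p = 0.0758). Its groups did not overlap. Kcnmb1, the BK beta subunit of smooth muscle, had between 16.6 and 24.7 in WT and between 5.69 and 10.5 in DKO, with a log2 fold change of -1.54 (DESeq2, SE 0.60, adjusted p = 0.152). The remaining genes were Plcb1, Plcb3, Atp2a3 and Atp2c2, with DESeq2 adjusted p-values from 0.239 to 0.348.

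**Figure D5:**
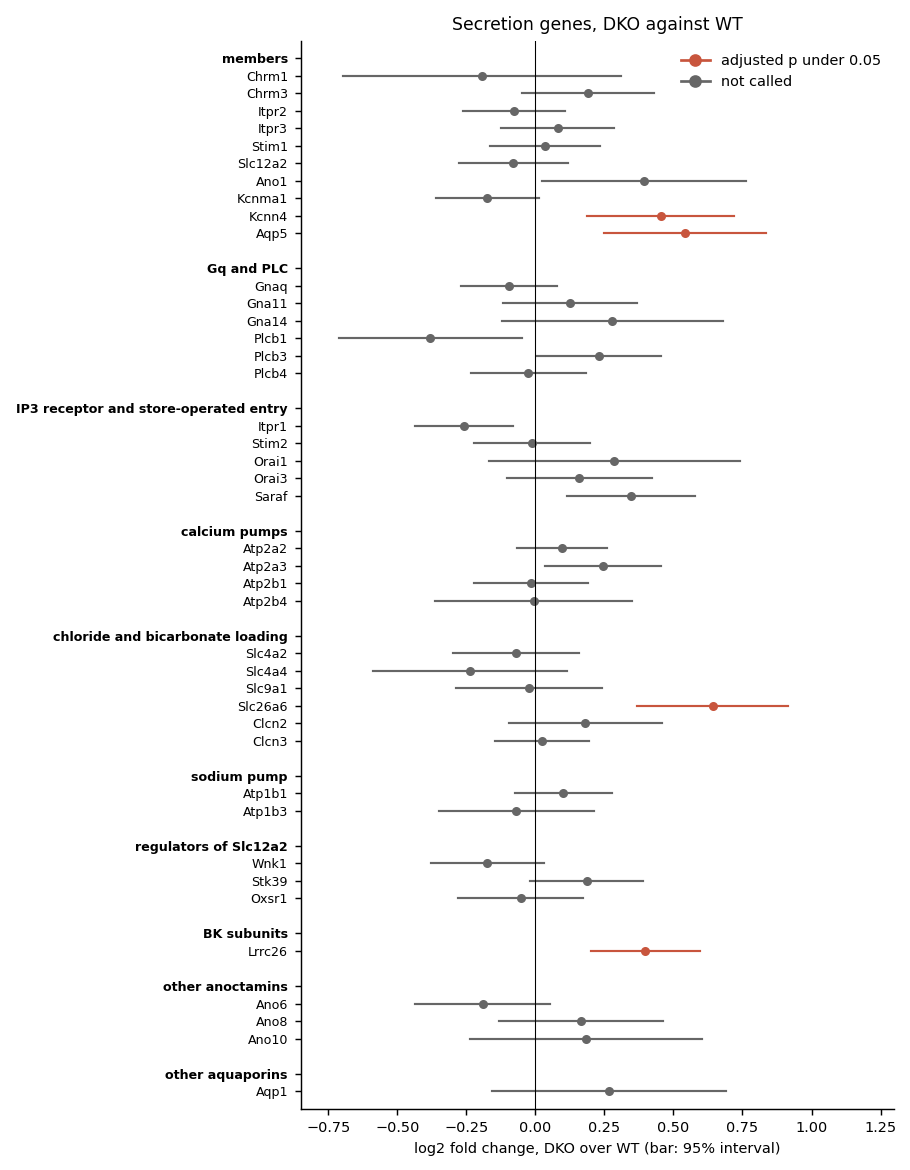
Log2 fold change of DKO over WT (horizontal axis, bar for the 95% interval) of the 10 genes and of 31 genes of the wider list with an adjusted p-value and a standard error under 0.3, grouped by role. Kcnn4, Aqp5, Slc26a6 and Lrrc26, in red, have an adjusted p-value under 0.05, and the other 37 genes, in grey, do not.

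The genes whose values across the 6 libraries were most like those of Aqp5 were looked for among 11488 genes with a mean of at least 50 normalized counts. The measure was the root mean square difference of log2 values, each centred on the mean of the gene. The 5 nearest were Cd82 at 0.045, Tars at 0.048, Kcnn4 at 0.052, Serp1 at 0.053 and Msrb1 at 0.067, against a median of 0.342 over all genes compared. Kcnn4 was thus the third nearest gene of all those compared. Of the other members Ano1 ranked 2041, Itpr3 3652, Chrm3 4286, Stim1 5440, Slc12a2 6846, Itpr2 7128, Kcnma1 8451 and Chrm1 10145. All 5 nearest genes shared with Aqp5 the highest value in DKO 4, as Cd82 with 3451 normalized counts there against between 1737 and 2375 in the other 5 libraries. This follows from the measure, which picks genes by their closeness to the values of Aqp5.

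Markers of the cell types of the gland were read from the same libraries. Of the 9 acinar markers all had a positive log2 fold change, with a median of 0.32, and 2 of them rose, the secretory pathway genes Agr2 with 1.11 and Creb3l1 with 0.58 (DESeq2 adjusted p = 3.64e-07 and 0.000503). The summed level of the acinar markers without Spt1 was between 418972 and 558206 normalized counts in WT and between 568430 and 636072 in DKO. Pip and Prol1 held between 91.4% and 93.9% of that sum, and in each of them the groups overlapped and the test did not pass (DESeq2 adjusted p = 0.359 and 0.479). Without them the sum was between 30808 and 36622 in WT and between 36809 and 54642 in DKO. Lpo, the secreted lactoperoxidase, was highest in DKO 4 with 31069 normalized counts, against at most 19815 in the other libraries, and did not pass (DESeq2 adjusted p = 0.0612). Over the 9 markers the log2 fold change ranged from 0.16 to 1.11.

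Of the 6 MEC markers 5 were tested, Oxtr being below the count filter, and 4 fell, with a median of -0.74, from a summed level between 7938 and 8505 normalized counts in WT to between 4266 and 5692 in DKO. Acta2, smooth muscle actin, fell by 0.74 on the log2 scale (DESeq2 adjusted p = 1.49e-07). Of the 8 duct markers 2 fell, among them Egf, with a median of -0.25 over the list and a summed level between 208405 and 258884 in WT and between 220220 and 289697 in DKO. Most of this sum was Klk1, the only one of the 8 with a positive log2 fold change (0.28, DESeq2 adjusted p = 0.424). Without Klk1 the sum, most of it Egf, was between 69192 and 80641 in WT and between 40261 and 54349 in DKO. Of the 5 immune markers 1 fell, Ighm, with a summed level between 874 and 3789 in WT and between 422 and 677 in DKO. Of the 4 endothelial, 4 vascular smooth muscle, 4 nerve, 2 skeletal muscle and 1 fat markers tested, 0 passed. All 4 endothelial markers had a positive log2 fold change, with a median of 0.28, near the 0.32 of the acinar list. The part of these shifts in the values of the secretion genes was not tested.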

How the data were processed

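Whole SMG RNA from 3 WT and 3 DKO libraries was sequenced as unstranded Nextera XT libraries on a HiSeq2500. Raw counts, 1 row for each gene symbol, were deposited by the authors. The submitters' processing notes name STAR 2.5.2a, DESeq2, edgeR and limma and the builds GRCm38, mm10 and GRCh38, without roles. The counting tool and annotation were not given in the sources used here. The deposited filtered counts equalled the unfiltered ones for the 17527 rows kept. The deposited CPM table was not used.

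Rows with at least 10 counts in all were tested with DESeq2 1.42.0 in R 4.3.3, with median-of-ratios size factors from 0.867 to 1.12. Wald tests were two-sided, fold changes were unshrunken, and Cook's and independent filters (alpha 0.1) were at their defaults. Benjamini-Hochberg adjustment was over the rows that these filters left in. P-values measure the spread between these libraries, 3 glands a group by the study, and whether any shared an animal is not stated. No library was a duplicate of another in its group (chi-square over its degrees of freedom 16.8 to 43.4). Libraries of different groups were not compared in this way. Ratios were tested by exact permutation over libraries. Alternatives were edgeR 4.0.16 (quasi-likelihood), limma 3.58.1 (voom), other scalings and filters, a replicate block and each library left out. The DESeq2, edgeR and limma-voom fits were tried on simulated counts, and the other steps were not.

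The members, the wider list and the marker lists were chosen with earlier results of these data known. Named genes were the members, the targeted genes, called or filtered genes of the wider list, 7 others fixed by name (1 of them is not reported here), and the 5 genes most like Aqp5. Coordinates are those of GENCODE M21 on GRCm38, and promoters those of RefSeq.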

Additional observations from a re-analysis of the deposited data

How the results depend on the processing

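Of the 160 values of the 10 genes under the 16 alternatives, 140 kept their direction and their side of the threshold, 14 lost a call, 1 gained a call and 5 changed sign. The number of the 10 genes called was 2 under TMM factors, either other count filter, the authors' filtered counts and with independent filtering or Cook's filter off. It was 1 with total counts (Kcnma1, lower), 0 under edgeR and 0 under limma-voom, and from 0 to 2 with 1 library left out, the calls being lost without WT 1, WT 5, DKO 4 or DKO 5. The wider list gave 6 calls with total counts, all lower, 0 under edgeR and 0 under limma-voom, with 7 and 8 genes at an unadjusted p under 0.05, and from 1 to 3 with 1 library left out. By edgeR and limma-voom, 2789 and 2609 of all 18606 rows had an unadjusted p under 0.05. Over all genes 539 were called, against 1469 with total counts (62 higher and 1407 lower), 10 under edgeR, 7 under limma-voom, and from 149 without WT 5 to 817 without WT 4. The cause of these differences was not tested.

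With total counts, where the median of all rows moved to -0.23, the log2 fold change turned negative for Chrm3 (-0.035), Itpr3 (-0.15), Stim1 (-0.20) and Atp2a2 (-0.13). With 1 library left out it ranged from -0.38 to 0.035 for Chrm1, positive without WT 1, and from -0.0046 to 0.080 for Stim1, negative without WT 5. It ranged from -0.050 to 0.018 for Stim2, positive without WT 4 or DKO 1. None of these passed the threshold in either direction. None of the 32 alternative values of the 4 ratios changed sign.

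The replicate number as a block gave 343 calls over all genes and 2 of the 10 members. With the block, the adjusted p-values by DESeq2 were 0.00121 for Aqp5, 0.00748 for Kcnn4, 0.0289 for Slc26a6 and 0.0492 for Lrrc26. Same-numbered libraries had correlations of -0.259 to -0.024 between their deviations from the group means. Of the 6 libraries, 0 correlated best with its own number. The highest values were 0.271 for WT 1 with DKO 4, 0.444 for WT 4 with DKO 5 and 0.446 for WT 5 with DKO 1. With 3 libraries a group, such correlations cannot decide whether libraries were paired, by number or otherwise.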
